A study of Mus musculus with 12 samples.

Results

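The alpha-defensins and the other granule genes of Paneth cells were followed across colonic crypts of 12 mice. A gene was included if its symbol began with Defa followed by a digit or a hyphen, or if it was Lyz1, Mmp7, Pla2g2a or Itln1, and if its reads summed to 10 or more over the 12 libraries. Of 55471 genes listed, 49 matched by name and 29 were selected on that summed count. These 29 were 22 Defa genes, 3 Defa pseudogenes and the 4 other genes. Among the 20 that were not used, 10 had 0 reads in every library. Just inside the limit were Defa-ps1 with 14 reads and Defa-ps7 with 19, and just outside it were Defa33 with 7 and Defa28 with 6.

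Paneth cells sit at the base of small intestinal crypts and release antimicrobial granules into the crypt lumen. Mouse alpha-defensins, also called cryptdins, are made as inactive precursors that the protease matrilysin (Mmp7) cleaves, and lysozyme P (Lyz1) and the phospholipase Pla2g2a are stored in the same granules. Healthy mouse colon is known to lack typical Paneth cells, and its deep crypt secretory cells are regarded as their counterpart.

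Each group held 3 female mice aged 8 weeks on a C57BL/6 background, with 1 library of EDTA-released colonic crypts per mouse. All 4 groups carried floxed p53 (Trp53) alleles. CBPWTp53-floxed mice had normal CBP, the acetyltransferase encoded by Crebbp. CBPAAp53-floxed mice carried alanines at phosphorylated serines of CBP in all cells. This knock-in was made in embryonic stem cells and then backcrossed. The authors' methods name both another strain and C57BL/6N as the source of those cells. CBPWTp53ΔIEC and CBPAAp53ΔIEC mice had the same CBP alleles and lost p53 in intestinal epithelial cells through Cre under the Villin promoter. Trp53 levels lay between 23.3 and 33.5 TPM (a level corrected for gene length and library size) in the floxed groups and between 3.26 and 6.13 TPM in the p53ΔIEC groups. Gene counts summed to 11177430 in the smallest and 18029125 in the largest library. On the scale of log2 CPM (counts scaled to the library's total), Pearson's r across genes was at least 0.952 for mice of the same group. The epithelial genes Epcam and Krt8 and the colonocyte gene Car1 were present in every library, the latter between 7691 and 18877 TPM.

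In these genes 4 of the 12 libraries stood apart. They were CBPWTp53ΔIEC mouse 1, CBPAAp53ΔIEC mice 1 and 3 and CBPAAp53-floxed mouse 2, and together they held 99.7% of the 72333 reads on the 25 Defa rows. Each library name carries a number whose meaning is not stated. Apart from these numbers, the labels give these mice no feature that sets them apart from the rest of their groups. In bulk crypt RNA, fewer cells of a type and less RNA per cell cannot be told apart, and the same holds for more.

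All 25 used Defa rows lie in 1 cluster on chromosome 8, and many of them are close copies of another row. In 21 of the 22 used Defa genes the end of the coding sequence showed 1 of 3 arrangements of cysteine codons, the residues whose disulfide bonds hold the peptide together. The last 35 codons before the stop are shown for the 5 genes with the most reads and for Defa20, because reads are split among genes by such differences. The letters are from GENCODE M21 transcripts (GRCm38) and capitals mark in-frame cysteine codons.
Defa24 (chr8:21735270-21735374, + strand): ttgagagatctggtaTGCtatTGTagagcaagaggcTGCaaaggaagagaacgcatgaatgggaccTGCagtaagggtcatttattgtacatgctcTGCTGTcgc
Defa30 (chr8:21135396-21135500, + strand): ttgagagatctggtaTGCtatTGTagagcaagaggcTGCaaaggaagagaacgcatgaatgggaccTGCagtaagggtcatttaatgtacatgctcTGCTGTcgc
Defa22 (chr8:21163048-21163152, + strand): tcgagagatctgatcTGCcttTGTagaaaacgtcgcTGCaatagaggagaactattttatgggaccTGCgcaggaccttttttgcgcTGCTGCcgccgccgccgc
Defa21 (chr8:21026316-21026420, + strand): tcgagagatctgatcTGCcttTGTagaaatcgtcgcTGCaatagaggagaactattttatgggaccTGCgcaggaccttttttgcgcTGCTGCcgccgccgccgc
Defa20 (chr8:21510036-21510140, + strand): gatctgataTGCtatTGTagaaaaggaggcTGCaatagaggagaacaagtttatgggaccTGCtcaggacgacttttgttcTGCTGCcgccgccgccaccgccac
Defa38 (chr8:21095077-21095181, - strand): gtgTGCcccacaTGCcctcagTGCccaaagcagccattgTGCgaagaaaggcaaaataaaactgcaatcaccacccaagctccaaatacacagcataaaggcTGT
Defa24 and Defa30 differed at 1 of these 105 bases, as did Defa22 and Defa21, and Defa20, Defa32 and Defa2 did not differ at all. In 12 genes, Defa24 and Defa30 among them, 6 cysteine codons were present with 9 codons between the fourth and the fifth, and in 5 genes, Defa22, Defa21, Defa20, Defa32 and Defa2, 6 codons separated them. The 4 genes Defa38, Defa39, Defa29 and Defa42 had 5 cysteine codons in this stretch and 11 in the whole coding sequence. Defa41 had 7 in the stretch.

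This likeness limits the assignment of reads to single rows. Of all 50-base windows of a transcript, a median of 72.9% (range 28.1% to 100%) recurred unchanged in another Defa transcript over the 25 used rows. Defa24 was the least shared, at 28.1%. Every window of Defa42 also occurred in Defa43, yet Defa42 was given 885 reads and Defa43 only 3. Of the windows of Defa2, 86.7% occurred in Defa33, and these rows had 945 and 7 reads. The read length and the rule for reads that match several genes are not given in the sources used here, so that levels of single Defa rows are uncertain and their sum is the firmer measure.

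The sum of Defa reads differed widely between mice, also within groups. It was 0 in all 3 CBPWTp53-floxed libraries. There 3 reads, taken as the limit for a count of 0 (near a 1-sided 95% bound), would be 0.268, 0.177 and 0.170 CPM. The 2-sided exact 95% interval reached somewhat higher, to 3.3e-05% of all reads in CBPWTp53-floxed mouse 1. In CBPAAp53-floxed mice the sum was 8, 3615 and 70 reads for mice 1 to 3, or 0.608, 201 and 5.75 CPM. CBPWTp53ΔIEC mice had 49711, 93 and 2 reads, or 4248, 6.03 and 0.143 CPM. CBPAAp53ΔIEC mice had 5913, 79 and 12842 reads, or 426, 5.96 and 875 CPM. Every library outside the CBPWTp53-floxed group thus had at least 2 Defa reads, and the ranges of the 3 other groups overlapped. In CBPWTp53ΔIEC mouse 1, 0.425% of all reads were on Defa rows (95% interval 0.421% to 0.429%, exact Clopper-Pearson, counting error only). Set against the largest of the 3 limits at 3 reads of the CBPWTp53-floxed libraries, the summed level was 747-fold higher in CBPAAp53-floxed mouse 2 and 1588-fold in CBPAAp53ΔIEC mouse 1. It was 3261-fold higher in CBPAAp53ΔIEC mouse 3 and 15828-fold in CBPWTp53ΔIEC mouse 1, and these folds would be smaller against the exact interval. Between the fourth and the fifth library in order the level fell 33.3-fold, and between the first and the second it fell 4.85-fold.

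**Figure D1:**
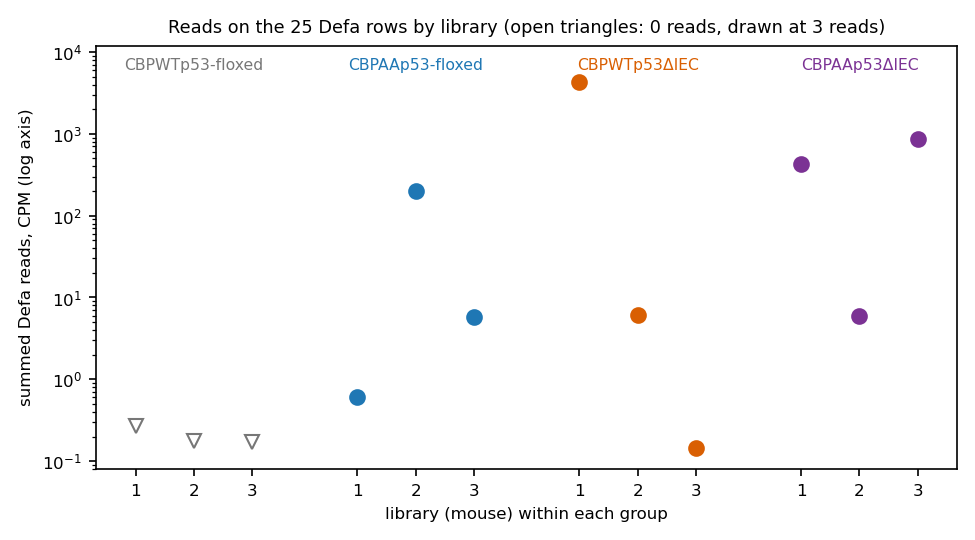
Summed reads on the 25 Defa rows in CPM on a log axis, 1 point per library, in the 4 groups of 3 mice. Open triangles stand for 0 reads and are drawn at 3 reads. CBPWTp53ΔIEC mouse 1 is highest at 4248 CPM, and CBPAAp53-floxed mouse 2 and CBPAAp53ΔIEC mice 1 and 3 follow between 201 and 875 CPM.

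Defa24 had the highest mean level of the family. It was at 0 in all CBPWTp53-floxed libraries, at 1.92, 471 and 23.1 TPM in CBPAAp53-floxed, at 8290, 21.1 and 0.466 TPM in CBPWTp53ΔIEC and at 1079, 19.8 and 1913 TPM in CBPAAp53ΔIEC mice 1 to 3. The SD between mice was close to or above the group means, which were 165 ± 265 TPM, 2771 ± 4780 TPM and 1004 ± 949 TPM (SD, n = 3) in these 3 groups. Defa30 followed with 4149 TPM in CBPWTp53ΔIEC mouse 1, 957 and 479 TPM in CBPAAp53ΔIEC mice 3 and 1 and 199 TPM in CBPAAp53-floxed mouse 2. It was at 0 in all CBPWTp53-floxed libraries and at 1.01 and 3.89 TPM in CBPAAp53-floxed mice 1 and 3, 8.39 and 0.491 TPM in CBPWTp53ΔIEC mice 2 and 3 and 5.80 TPM in CBPAAp53ΔIEC mouse 2. The same order of the 4 libraries was seen by CPM in 22 of the 25 Defa rows. It ran from CBPWTp53ΔIEC mouse 1 through CBPAAp53ΔIEC mouse 3 and mouse 1 to CBPAAp53-floxed mouse 2. It is also the order of the summed Defa level, which these rows make up, and many rows are close copies of each other. How often this order occurred among all genes was not counted.

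Defa22 reached 3596, 735, 281.3 and 120 TPM in that order of libraries, and had 1.38 TPM in CBPAAp53-floxed mouse 3, 1.20 TPM in CBPWTp53ΔIEC mouse 2, 1.84 TPM in CBPAAp53ΔIEC mouse 2 and 0 in the other 5. Defa21 reached 2266, 631, 214 and 121 TPM, and had 0.481 TPM in CBPAAp53-floxed mouse 1, 0.921 TPM in CBPAAp53ΔIEC mouse 2 and 0 in the other 6. Defa38, of the genes with 11 cysteine codons, reached 1716, 460, 195 and 106 TPM, and had 2.85 TPM in CBPWTp53ΔIEC mouse 2, 3.84 TPM in CBPAAp53ΔIEC mouse 2 and 0 in the other 6. These 3 genes were thus absent or nearly so in the same 8 libraries. Those 8 are the lowest in the summed Defa level, of which these genes are a part. The next genes by mean level were lower. Defa17 had 615, 117, 78.6 and 30.2 TPM in the same order, 1.95 TPM in CBPAAp53-floxed mouse 3, 1.68 TPM in CBPWTp53ΔIEC mouse 2, 0.485 TPM in CBPAAp53ΔIEC mouse 2 and 0 in the other 5 libraries. Defa32 had 405, 79.1, 19.2 and 8.15 TPM and was at 0 in the other 8. Defa20 had 361, 97.3, 37.6 and 12.5 TPM, 1.82 TPM in CBPAAp53-floxed mouse 3, 0.393 TPM in CBPWTp53ΔIEC mouse 2 and 0 in the other 6. Of the 3 pseudogenes Defa-ps6 had the highest mean level and reached 31.7 TPM in CBPWTp53ΔIEC mouse 1. All 29 genes had their highest CPM in CBPWTp53ΔIEC mouse 1. That library held 68.7% of the reads on the used Defa rows, and genes were selected on their summed reads. For rows with few reads a peak there can thus follow from the selection, as for Defa-ps1 with 12 of its 14 reads there. How many of all genes peaked in that library was not counted.

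**Figure D2:**
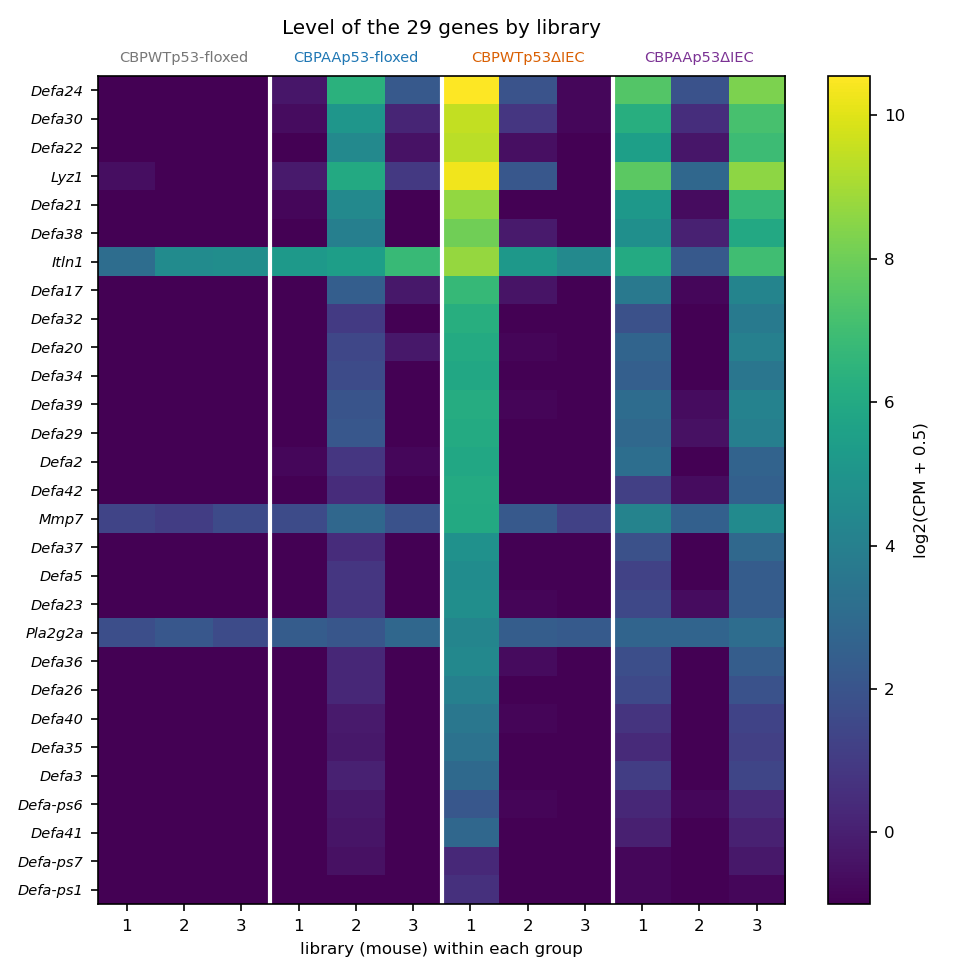
Level of the 29 genes (rows, ordered by mean TPM) in the 12 libraries (columns, by group and mouse) as log2(CPM + 0.5). The Defa rows and Lyz1 are at or near 0 in the CBPWTp53-floxed columns and brightest in CBPWTp53ΔIEC mouse 1, whereas Itln1, Mmp7 and Pla2g2a have reads in every column.

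Beside the Defa genes, lysozyme was the gene that came closest to an absent level in control crypts. Lyz1 had 2, 0 and 0 reads in CBPWTp53-floxed, 5, 1162 and 17 in CBPAAp53-floxed, 14521, 60 and 0 in CBPWTp53ΔIEC and 2790, 90 and 5665 in CBPAAp53ΔIEC libraries. Per length this was 0.361, 0 and 0 TPM, 0.796, 123 and 2.60 TPM, 2281, 7.93 and 0 TPM, and 410, 13.7 and 789 TPM. The libraries with the most Lyz1 were those with the most Defa reads. The number of Lyz1 reads per Defa24 read was 0.784 in CBPAAp53-floxed mouse 2, 0.829 in CBPWTp53ΔIEC mouse 1, 1.15 in CBPAAp53ΔIEC mouse 1 and 1.24 in CBPAAp53ΔIEC mouse 3. Within these 4 libraries it thus varied less than 2-fold while the summed Defa level varied 21.2-fold. It varied more in libraries with fewer reads, from 0.34 in CBPAAp53-floxed mouse 3 (17 Lyz1 and 50 Defa24 reads) to 2.09 in CBPAAp53ΔIEC mouse 2 (90 and 43 reads). In CBPWTp53ΔIEC mouse 2 it was 1.13 (60 and 53 reads). Lyz2, the lysozyme gene of macrophages, lay between 0.464 and 1.63 TPM in all libraries, so that the 2 lysozyme genes had separate patterns. The myeloid genes S100a9, Elane, Mpo and Fcgr1 had 0 reads in every library, whereas the other 11 of the 15 listed myeloid genes had reads.

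Mmp7, the activating protease, was measured in every library. It had 4.91, 4.00 and 6.31 TPM in CBPWTp53-floxed, 6.40, 15.3 and 7.24 TPM in CBPAAp53-floxed, 141, 10.0 and 4.75 TPM in CBPWTp53ΔIEC and 42.6, 12.8 and 54.2 TPM in CBPAAp53ΔIEC mice. All 3 CBPAAp53ΔIEC and all 3 CBPAAp53-floxed libraries lay above all CBPWTp53-floxed libraries, the lowest CBPAAp53-floxed one only just (6.40 against 6.31 TPM). The share of all genes separated like this was not counted. In the CBPAAp53-floxed and CBPWTp53ΔIEC groups 1 library each was high. The fitted log2 fold change in CBPWTp53ΔIEC vs. CBPWTp53-floxed was 3.59 (SE 1.36, adjusted p = 0.180 from edgeR). Without CBPWTp53ΔIEC mouse 1 it was 0.48.

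Itln1, an intelectin that binds microbial glycans and that goblet cells also make, had the highest mean level in control crypts among Lyz1, Mmp7, Itln1 and Pla2g2a. It had 18.6, 52.1 and 57.1 TPM in CBPWTp53-floxed, 84.4, 91.3 and 222 TPM in CBPAAp53-floxed, 849, 79.9 and 51.0 TPM in CBPWTp53ΔIEC and 150, 9.45 and 294 TPM in CBPAAp53ΔIEC mice. Its second pattern was set by CBPAAp53-floxed mouse 3, which was high in Itln1 with only 70 Defa reads, and CBPAAp53ΔIEC mouse 2, which was the lowest of all 12. Its log2 fold change was 1.81 (SE 1.42, adjusted p = 0.724) in CBPAAp53-floxed vs. CBPWTp53-floxed, where it was 1.10 without CBPAAp53-floxed mouse 3, and 3.18 (SE 1.48, adjusted p = 0.264 from edgeR) in CBPWTp53ΔIEC vs. CBPWTp53-floxed, where it was 0.53 without CBPWTp53ΔIEC mouse 1.

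Pla2g2a, whose product is disrupted in C57BL/6 mice and which GENCODE lists as a polymorphic pseudogene, varied least. It had 8.11, 10.9 and 7.59 TPM in CBPWTp53-floxed, 13.2, 9.76 and 16.9 TPM in CBPAAp53-floxed, 46.6, 13.1 and 12.8 TPM in CBPWTp53ΔIEC and 17.0, 17.0 and 22.9 TPM in CBPAAp53ΔIEC mice. All libraries of the p53ΔIEC groups lay above all CBPWTp53-floxed libraries, the nearest at 12.8 against 10.9 TPM. How many of all genes were separated in this way was not counted. It had the smallest p-value of all members in CBPWTp53ΔIEC vs. CBPWTp53-floxed, with a log2 fold change of 1.59 (SE 0.55, adjusted p = 0.128 from edgeR), which was 0.46 without CBPWTp53ΔIEC mouse 1.

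**Figure D3:**
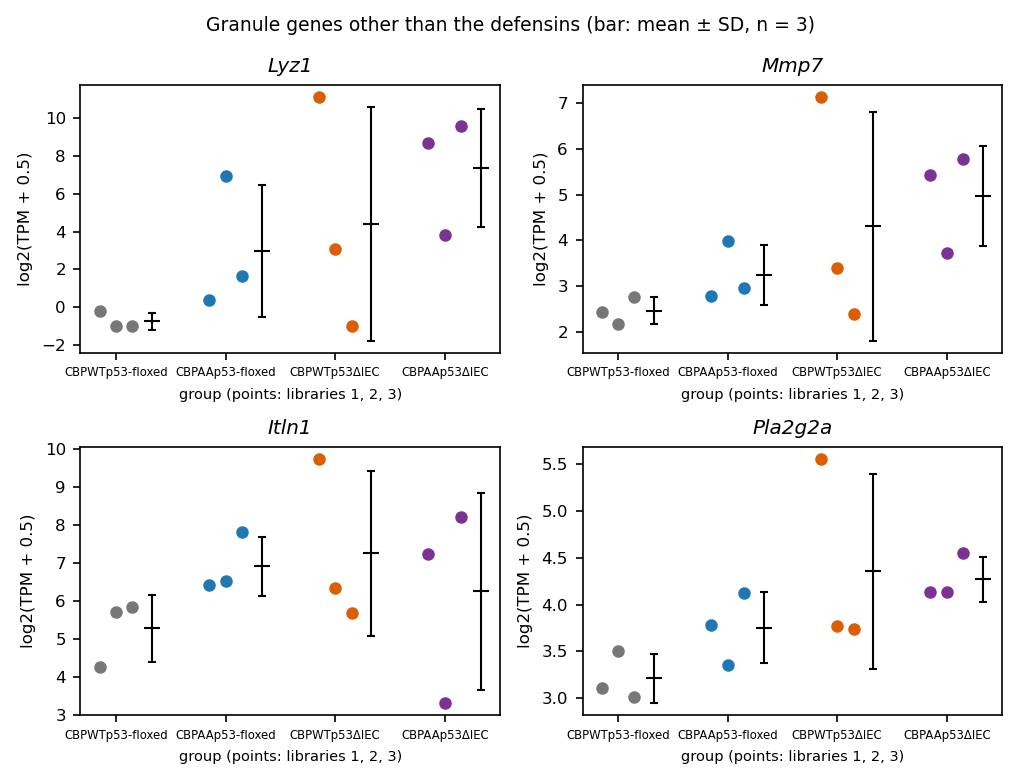
Levels of Lyz1, Mmp7, Itln1 and Pla2g2a as log2(TPM + 0.5), with 1 point per library from mouse 1 at the left to mouse 3 at the right of each group, and mean ± SD (n = 3). In each panel CBPWTp53ΔIEC mouse 1 is the highest point.

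Whether the groups differed was tested with edgeR across all 14610 genes that passed its filter on low counts, which 26 of the 29 genes did. Defa41, Defa-ps7 and Defa-ps1 did not, and since a gene could pass through a single group, the counts below describe these 26 and not the family. No member was called, at an adjusted p under 0.05 with a log2 fold change above 0.5 in size, in CBPAAp53-floxed vs. CBPWTp53-floxed, where the percentage of all genes called was 0. None was called in CBPWTp53ΔIEC vs. CBPWTp53-floxed, where 3.15% of all genes were, in CBPAAp53ΔIEC vs. CBPAAp53-floxed (0.0274%), in CBPAAp53ΔIEC vs. CBPWTp53ΔIEC (0.00684%) or in the interaction of CBP genotype and p53 deletion (0.00684%). At an unadjusted p under 0.05 there were 0, 4, 0, 0 and 0 of the 26 members in these comparisons, against 8.04%, 20.9%, 12.6%, 3.57% and 10.3% of all genes tested. The smallest adjusted p of a member was 0.656 (Lyz1), 0.128 (Pla2g2a), 0.561 (Mmp7), 0.985 (Defa42) and 0.556 (Lyz1). Each of the 4 groups serves in more than one of these comparisons. DESeq2 on the same 12 libraries called 19 members higher in CBPAAp53-floxed and 22 higher in CBPWTp53ΔIEC than in CBPWTp53-floxed mice, and 12 with a smaller p53 effect in CBPAA than in CBPWT mice. Of all genes DESeq2 gave an adjusted p, it called 0.122%, 6.31% and 0.204% in these 3 comparisons. In CBPAAp53ΔIEC vs. CBPAAp53-floxed and CBPAAp53ΔIEC vs. CBPWTp53ΔIEC it called 0 members, and 0.503% and 0.00369% of all genes. Without CBPAAp53-floxed mouse 2 DESeq2 called 4 in place of the 19, and without CBPWTp53ΔIEC mouse 1 it called 1 in place of the 22. The 12 of the interaction were not recounted in this way, although CBPWTp53ΔIEC mouse 1 also enters there, with 49711 Defa reads against 93 and 2. Without all 4 libraries rich in Defa reads, 6 members could be tested with edgeR and 0 were called in any of the 5 comparisons.

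The makeup of the Defa reads was compared between the 4 libraries rich in them, for which intervals cover counting error only. The genes Defa24, Defa30, Defa22, Defa21 and Defa38 together held 86.1% in CBPAAp53-floxed mouse 2, 83.0% in CBPWTp53ΔIEC mouse 1, 83.7% in CBPAAp53ΔIEC mouse 1 and 84.7% in CBPAAp53ΔIEC mouse 3. The 4 genes with 11 cysteine codons held between 10.2% and 11.9%. Defa30 held between 16.5% and 17.4% in all 4, with overlapping intervals. The makeup was thus nearly constant at the level of these large groups while the total differed 21.2-fold.

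Some shares differed by more than counting error. Defa24 held 41.0% (95% interval 39.4% to 42.6%, exact) in CBPAAp53-floxed mouse 2 and 41.2% (39.9% to 42.5%) in CBPAAp53ΔIEC mouse 1, against 35.2% (34.8% to 35.6%) in CBPWTp53ΔIEC mouse 1 and 35.5% (34.6% to 36.3%) in CBPAAp53ΔIEC mouse 3. Summed, the 5 genes with 6 codons between the fourth and the fifth cysteine codon were the reverse, with 23.4% and 23.1% against 29.6% and 29.3%. Within these 5, Defa22 had 10.4% and 10.7% against 15.3% and 13.6%, and Defa32 had 0.719% and 0.744% against 1.75% and 1.49%. Defa20 had 1.11% and 1.45% against 1.56% and 1.83%, with some intervals overlapping. Defa21 did not split this way, with 10.5% and 8.15% against 9.61% and 11.7%, and neither did Defa2. The 2 libraries of each pair came from mice of different groups, in both cases 1 of them from CBPAAp53ΔIEC mice.

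Defa42 and Defa2 followed neither pair. Defa42 held 1.54% (1.43% to 1.65%) in CBPWTp53ΔIEC mouse 1 and between 0.423% and 0.600% in the other 3 libraries, with intervals up to 0.749%. Defa2 held 2.00% in CBPAAp53ΔIEC mouse 1, 1.44% in CBPWTp53ΔIEC mouse 1, 0.677% in CBPAAp53ΔIEC mouse 3 and 0.636% in CBPAAp53-floxed mouse 2. Both rows share all of their 50-base windows with another Defa row. Summed over Defa20, Defa32 and Defa2, whose coding ends do not differ, the shares were 4.74%, 4.19%, 3.99% and 2.46% in CBPWTp53ΔIEC mouse 1, CBPAAp53ΔIEC mouse 1, CBPAAp53ΔIEC mouse 3 and CBPAAp53-floxed mouse 2.

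**Figure D4:**
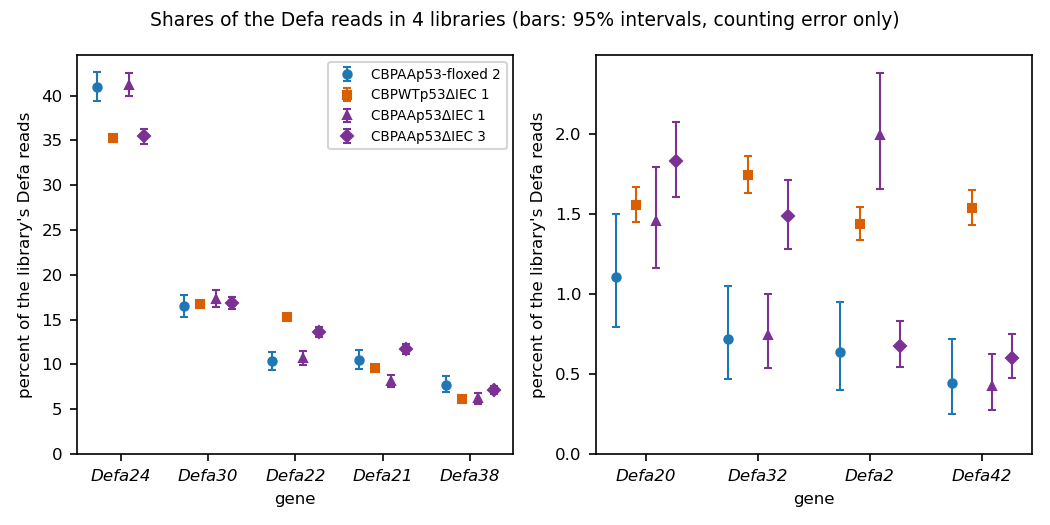
Share of a library's Defa reads held by single genes, in percent, in the 4 libraries with the most Defa reads, with 95% exact binomial intervals (counting error only). Defa24 is at 41.0% and 41.2% in CBPAAp53-floxed mouse 2 and CBPAAp53ΔIEC mouse 1 and at 35.2% and 35.5% in the other 2, and Defa42 is raised in CBPWTp53ΔIEC mouse 1 alone among these 4.

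The start regions of the genes were read for sequence features they share, since the genes varied together across libraries. RefSeq windows (GRCm38.p6, 250 bases before to 50 after the start) were at hand for 16 of the 29 genes, 13 of them Defa genes. TATAAA, the core of the TATA box, occurred on either strand in 13 of 13 Defa windows and in 13.6% of all 32851 windows. ATCAAAG, a site of the TCF factors that carry Wnt signals, occurred in 11 of 13 Defa windows and in 3.73% of all windows. The 2 Defa genes without it were Defa38 and Defa42, both of the kind with 11 cysteine codons. The stretch around the TATAAA is shown for genes with and without ATCAAAG near it, with both motifs in capitals.
Defa22 (chr8:21162196-21162276, + strand): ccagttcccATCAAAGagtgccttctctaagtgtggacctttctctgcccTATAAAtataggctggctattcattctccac
Defa23 (chr8:21054957-21055039, + strand): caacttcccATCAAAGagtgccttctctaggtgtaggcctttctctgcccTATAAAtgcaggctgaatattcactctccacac
Defa30 (chr8:21134539-21134624, + strand): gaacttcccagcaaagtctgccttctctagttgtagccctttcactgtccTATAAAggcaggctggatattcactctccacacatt
Defa38 (chr8:21096089-21096174, - strand): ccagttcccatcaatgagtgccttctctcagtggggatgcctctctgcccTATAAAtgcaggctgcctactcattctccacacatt
Defa42 (chr8:21456556-21456641, - strand): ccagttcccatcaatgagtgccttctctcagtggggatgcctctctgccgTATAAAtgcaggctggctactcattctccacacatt
In Defa30 the ATCAAAG lay elsewhere in the window. Outside the Defa genes, Mmp7 had both motifs, and Lyz1 and Itln1 windows held neither. The Defa windows are near copies of each other and are not independent counts, and a match is a description and not a proof of a binding site.

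Other genes of Paneth cells behaved unevenly. Of 31 listed secreted products outside the family, 17 were found under these symbols and 14 were tested, and 0 were called in any of the 5 comparisons. A further 6 listed symbols were older names of Defa rows. Mptx2, a pentraxin found in Paneth cells, had 12.4 TPM in CBPAAp53-floxed mouse 2, 178 TPM in CBPWTp53ΔIEC mouse 1 and 26.7 and 53.6 TPM in CBPAAp53ΔIEC mice 1 and 3, and at most 3.16 TPM in any other library. The lectin Reg3g had 271, 1588, 352 and 589 TPM in those libraries and between 27.3 and 223 TPM in the other 8, the highest of them CBPAAp53-floxed mouse 1. Mptx1, with the highest mean level in the list, ranged from 5885 TPM in CBPAAp53ΔIEC mouse 2 to 71029 TPM in CBPAAp53-floxed mouse 3. The ribonuclease Ang4 had its extremes in the same libraries, 299 and 11777 TPM, and had 2732 TPM in CBPWTp53ΔIEC mouse 1. Mptx1 and Ang4 thus shared their extremes with each other and, at the low end, with Itln1.

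Of 28 genes for Paneth cell fate, niche and secretion, 26 were tested and 0 were called in any comparison. Ctnnb1, the Wnt effector beta-catenin, had the highest mean level among them. Sox9, a factor needed for Paneth cells, had 25.5 TPM in CBPWTp53ΔIEC mouse 1, the lowest of all libraries. Atoh1, the factor of all secretory cells, had 71.8 TPM there, also its lowest. In CBPAAp53ΔIEC mouse 1, also rich in Defa reads, Sox9 had 47.5 TPM and Atoh1 147 TPM. These lay within the range of the 8 libraries poor in Defa reads. Wnt3, a niche signal made by Paneth cells, had only 64 reads over the 12 libraries. It had 1.42 TPM in CBPWTp53ΔIEC mouse 1 and 0.543, 0.801 and 0.260 TPM in CBPAAp53ΔIEC mice 1 and 3 and CBPAAp53-floxed mouse 2, with at most 0.196 TPM elsewhere.

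Some genes of the small intestine were high in the libraries with the most Defa reads. Of 27 listed small intestinal enterocyte and regional genes, 8 had their 4 highest levels in the 4 libraries rich in Defa reads, as did 0.763% of the 19803 genes with at least 10 reads in all. Fabp6, the ileal bile acid binding protein, had 217 TPM in CBPAAp53-floxed mouse 2, 1629 TPM in CBPWTp53ΔIEC mouse 1 and 453 and 500 TPM in CBPAAp53ΔIEC mice 1 and 3, and between 3.78 and 20.1 TPM in the others. The apolipoprotein Apoa1 had 451, 1704, 143 and 887 TPM in those libraries. The list summed to between 2202 and 2508 TPM in CBPWTp53-floxed, 2010 and 4450 TPM in CBPAAp53-floxed, 1985 and 8442 TPM in CBPWTp53ΔIEC and 1553 and 5470 TPM in CBPAAp53ΔIEC libraries. No gene of the list was at 0 in all libraries, and Onecut2 was lowest with 7 reads in all. The foregut factor Pdx1 had its 4 lowest levels in these libraries, between 0.0919 and 0.516 TPM, and lay between 0.559 and 1.63 TPM in the other 8. In CBPWTp53ΔIEC vs. CBPWTp53-floxed, 1 of the 23 tested genes rose, Cps1, a urea cycle enzyme (log2 fold change 2.62, SE 0.44, adjusted p = 0.0256 from edgeR). Cps1 had 32.0, 18.9 and 20.4 TPM in CBPWTp53ΔIEC mice and did not follow the Defa reads. The part of the small intestinal genes in the Defa levels was not tested.

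The 19 colon regional genes found in the table summed to between 9349 and 21576 TPM over all 12 libraries. Most of this was Car1, at 12820 to 18877 TPM in the 4 libraries rich in Defa reads and 7691 to 18850 TPM in the other 8. Of the 19 genes, 0 had all 4 of these libraries below the other 8 and 0 had all 4 above them. Hoxd13, a hindgut factor, was at 1.23, 0.320, 1.27 and 0.354 TPM in CBPAAp53-floxed mouse 2, CBPWTp53ΔIEC mouse 1 and CBPAAp53ΔIEC mice 1 and 3, and at 0.184 TPM in CBPWTp53-floxed mouse 1 with 0 Defa reads, and between 2.35 and 8.47 TPM in the remaining 7 libraries. Of 15 colonic goblet and deep crypt secretory genes, all were tested and Best2, an ion channel of colonic goblet cells, fell in CBPWTp53ΔIEC vs. CBPWTp53-floxed (log2 fold change -1.18, SE 0.28, adjusted p = 0.0425 from edgeR). The lists for myeloid cells, lymphocytes and epithelium had 0 genes called in any comparison. Of these lists only 5 of 15, 6 of 10 and 12 of 12 genes were tested. Of 15 myeloid genes 11 had reads, and S100a9, Elane, Mpo and Fcgr1 were at 0 in every library. The list summed to between 65.3 and 70.2 TPM in CBPWTp53-floxed, 50.6 and 90.4 TPM in CBPAAp53-floxed, 57.7 and 66.8 TPM in CBPWTp53ΔIEC and 57.4 and 62.2 TPM in CBPAAp53ΔIEC libraries. Most of it was Cd14, a receptor for bacterial lipopolysaccharide, at 45.4 to 83.1 TPM. The integrin Itgam had its 4 highest levels, from 1.16 to 1.37 TPM, in the 4 libraries rich in Defa reads. The 10 lymphocyte genes all had reads and summed to between 5.31 and 11.3 TPM in CBPWTp53-floxed, 5.72 and 14.6 TPM in CBPAAp53-floxed, 6.01 and 14.9 TPM in CBPWTp53ΔIEC and up to 22.3 TPM in CBPAAp53ΔIEC libraries. The 4 libraries rich in Defa reads held 11.2 to 22.3 TPM of it and the other 8 held 5.31 to 11.3 TPM. Gzmb, a granzyme of cytotoxic lymphocytes, had its 4 highest levels there, up to 4.78 TPM, against at most 2.54 TPM elsewhere. The part of these cells in the Defa levels was not tested. Of the 4 tested stromal genes, Pdgfrb fell in CBPWTp53ΔIEC vs. CBPWTp53-floxed (log2 fold change -0.97, SE 0.22, adjusted p = 0.0344 from edgeR).

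The genes most like the summed Defa level were sought by Pearson's r of log2(CPM + 0.5) over the 12 libraries. Fabp6 came first (r = 0.979), followed by Olfm4 (0.962), Gata5 (0.958), Mptx2 (0.954), Fam234b, Enpep, Bcl2l15, Slc26a6, Ocm and Fam20a, the last at 0.935. Over 11 libraries, with CBPWTp53ΔIEC mouse 1 left out, 9 of these 10 genes stayed among the first 10, and Ccl25, a chemokine of the small intestine, took the place of Slc26a6. Olfm4, a gene of small intestinal crypt bases, had 9.53, 126, 48.7 and 57.6 TPM in the 4 libraries and at most 4.45 TPM elsewhere. By the same measure Ang4 had r = 0.12 and Mptx1 r = 0.14. These values describe 12 libraries of which 4 lie far above the rest, and they carry no test.

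**Figure D5:**
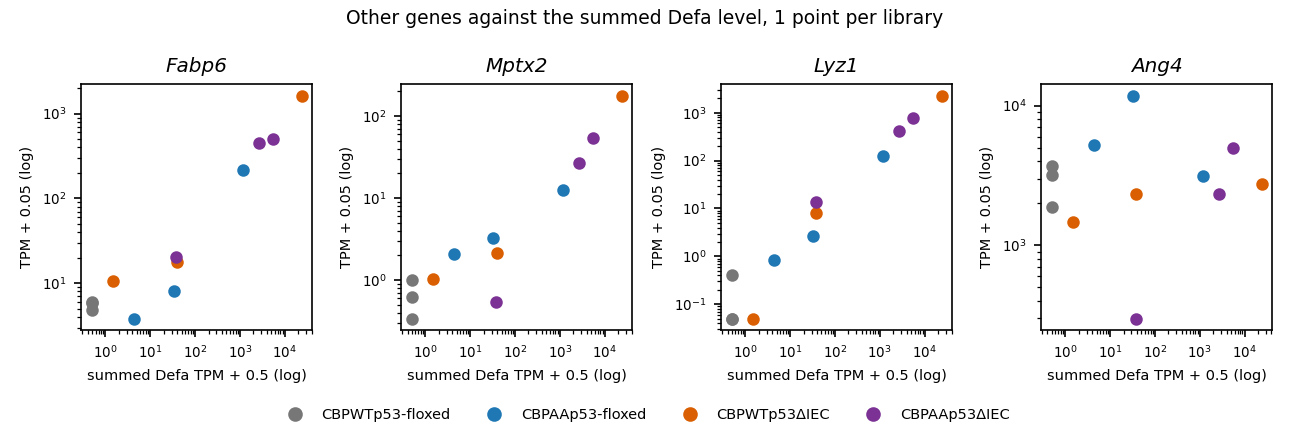
TPM of Fabp6, Mptx2, Lyz1 and Ang4 (each + 0.05) against the summed TPM of the Defa rows (+ 0.5), both on log axes, 1 point per library coloured by group. The first 3 genes are highest in CBPWTp53ΔIEC mouse 1 at the right, whereas Ang4 is highest in CBPAAp53-floxed mouse 3, at 11777 TPM.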

How the data were processed

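Crypt RNA of 12 mice was sequenced with a stranded, poly(A)-based TruSeq kit. Per the labels and the submitters' processing notes, the tools named were fastp 0.20.0, FastQC 0.11.9, HISAT2 2.1.0, SAMtools 1.9 and featureCounts of Subread 2.0.1, with GRCm38, and settings for strand and multiply mapped reads are not given in the sources used here. The authors deposited raw read counts per gene and library and, beside them, TPM per gene and library. Columns with the authors' own fold changes and p-values were not used. Groups and replicate numbers came from the labels.

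The members, gene lists and tests were chosen with earlier results of these data known. Counts were tested with edgeR 4.0.16 in R 4.3.3 (filterByExpr with a minimum count of 10, TMM, robust quasi-likelihood fit of 4 groups over all 12 libraries). The Benjamini-Hochberg adjustment ran over all genes tested. A gene was called when its adjusted p was under 0.05 and its log2 fold change exceeded 0.5 in either direction. DESeq2 1.42.0, other filters and scalings, a replicate block and left-out libraries were alternatives. Values in every library are given for the 4 non-Defa genes and the 8 Defa rows highest by mean TPM. List genes that were called were named by rule, and other list genes were named after their values were seen. The scripts were tested on simulated data. Fitted folds of Defa rows and Lyz1 against CBPWTp53-floxed mice are not given, because those libraries held 0 to 2 reads. Precision is limited by depth (11177430 to 18029125 reads) and by 3 mice a group.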

Additional observations from a re-analysis of the deposited data

How the results depend on the processing

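Of 101 recounts of members called, 96 gave 0, as edgeR did, and the others were the DESeq2 counts of 19, 22 and 12 and, without CBPAAp53-floxed mouse 2 or CBPWTp53ΔIEC mouse 1 (chosen after seeing the data), 4 and 1. Of 377 refitted log2 fold changes of Lyz1, Mmp7, Itln1 and Pla2g2a, 359 kept direction and call, 3 passed the threshold (DESeq2, CBPWTp53ΔIEC vs. CBPWTp53-floxed) and 15 changed sign, none of them past the threshold. The replicate block turned Itln1 to -0.39 in CBPAAp53ΔIEC vs. CBPAAp53-floxed and Lyz1 to 1.54 in CBPAAp53ΔIEC vs. CBPWTp53ΔIEC, and changed no member call. Replicate numbers did not pair the libraries (correlations of -0.53 to 0.55). Leaving out single libraries gave -0.94 to 0.73 for Itln1 in CBPAAp53ΔIEC vs. CBPAAp53-floxed, and in CBPAAp53ΔIEC vs. CBPWTp53ΔIEC -2.17 to 6.67 for Lyz1, -1.31 to 2.37 for Mmp7, -2.31 to 1.29 for Itln1 and -0.87 to 0.63 for Pla2g2a, and for Mmp7 in the interaction -2.40 to 1.27. Without the 4 libraries with the most Defa reads (chosen after seeing the data), which leaves 1 CBPAAp53ΔIEC library assumed to vary like the other groups, Itln1 was -4.23 in CBPAAp53ΔIEC vs. CBPAAp53-floxed, Lyz1 1.76, Mmp7 0.82 and Pla2g2a 0.45 in CBPAAp53ΔIEC vs. CBPWTp53ΔIEC, and Mmp7 0.27 in the interaction.

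Counts over all genes moved more. In CBPAAp53-floxed vs. CBPWTp53-floxed (0 genes) they were 33 with DESeq2, 14 with DESeq2 without CBPAAp53-floxed mouse 2, 3 with no filter, 42 without those 4 libraries and 0 to 2 with single libraries left out. In CBPWTp53ΔIEC vs. CBPWTp53-floxed (460 genes) they were 865 with DESeq2, 1175 with DESeq2 without CBPWTp53ΔIEC mouse 1, 32 with the replicate block, 723 with the groups compared only, 1729 without those 4 libraries and 1 to 906 with single libraries left out. In CBPAAp53ΔIEC vs. CBPAAp53-floxed (4 genes) they were 69 with DESeq2, 11 with no filter, 2 with the block, 1 with the groups compared only, 1053 without those 4 libraries and 1 to 326 with single libraries left out. In CBPAAp53ΔIEC vs. CBPWTp53ΔIEC (1 gene) they were 0 with the block and with the groups compared only, 8 without those 4 libraries and 0 to 1 with single libraries left out. In the interaction (1 gene) they were 30 with DESeq2, 2 with no filter, 0 with the block, 35 without those 4 libraries and 0 to 1 with single libraries left out. The causes were not tested. The 4 libraries held 96.0% of the summed CPM of the 29 genes, 97.8% of the summed TPM, 99.7% with the Defa rows alone and 89.0% without them.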
